A study of Mus musculus with 26 samples.

Results

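The 5 genes described here carry signals between osteoblasts, which build bone, and osteoclasts, which resorb it, and were followed in osteoblasts cultured from mouse femurs. They are Tnfsf11 (RANKL), Tnfrsf11b (osteoprotegerin, OPG), Tnfrsf11a (RANK), Csf1 and Il34, and they were taken by symbol from the deposited gene counts, 5 of 26264 symbols. The study asked how gene expression in osteoblasts differs with age and after deletion of a part of Kdm2b, a subunit of a Polycomb complex. Its 18 RNA libraries formed 6 groups of 3.

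The label of CON-OLD-iBP names old control cells and iBP, an abbreviation that is not expanded and has no dose in the labels. CKO-OLD and CKO-YOUNG came from Kdm2b fl/fl mice with Ocncre and the Ai14 reporter, in which the CxxC domain of Kdm2b is deleted conditionally. Ocn-cre is driven by an osteocalcin promoter, which is active in mature cells of the osteoblast lineage. The mice of OLD were 18 months old and those of YOUNG 3 months. The strain is labelled C57BL/6J throughout. The control of the knockout line carried Ocncre and Ai14 alone, which CON-YOUNG and CON-OLD-iBP are by their titles, so both CKO and both CON groups share the driver and the reporter. The ages of those 4 groups are labelled only as old or young. All cells were grown in the same basal medium with serum. The labels tie no library to an animal or a culture. The p-values therefore cover only the spread between these libraries, and that spread may be technical. An old, untreated control of the knockout line is not among the 6 groups. OLD stood in as the untreated old group, and mouse line cannot be told apart from deletion in CKO-OLD against OLD, nor from iBP in CON-OLD-iBP against OLD. CON-OLD-iBP and CKO-OLD differ in both iBP and deletion, which cannot be told apart between them.

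RANKL on osteoblast-lineage cells binds RANK on osteoclast precursors and drives them to become bone-resorbing osteoclasts, and OPG is a secreted decoy that captures RANKL. CSF1 and IL-34 are the ligands of the receptor CSF1R, which keeps macrophages and osteoclast precursors alive. RANK and CSF1R are chiefly receptors of the macrophage and osteoclast lineage, so in cultures of osteoblasts their transcripts are watched beside macrophage markers.

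The promoters of the members are shown because the CxxC domain that was deleted binds CpG dinucleotides, here set in capitals. A RefSeq table of the GRCm38.p6 build held 3 of the 5 members, Tnfsf11, Tnfrsf11a and Csf1, and not Tnfrsf11b or Il34. Each line gives the bases just before the annotated gene start, 5′ to 3′ on the strand of the gene.
Tnfsf11: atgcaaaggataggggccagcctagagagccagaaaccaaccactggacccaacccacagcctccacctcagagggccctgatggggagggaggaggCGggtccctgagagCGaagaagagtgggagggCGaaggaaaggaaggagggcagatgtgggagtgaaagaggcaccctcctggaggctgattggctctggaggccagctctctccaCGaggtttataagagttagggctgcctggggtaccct
Tnfrsf11a: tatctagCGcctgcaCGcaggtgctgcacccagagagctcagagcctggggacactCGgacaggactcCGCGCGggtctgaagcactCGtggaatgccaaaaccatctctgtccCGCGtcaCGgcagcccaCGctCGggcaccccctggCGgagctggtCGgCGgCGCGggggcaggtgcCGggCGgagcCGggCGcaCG
Csf1: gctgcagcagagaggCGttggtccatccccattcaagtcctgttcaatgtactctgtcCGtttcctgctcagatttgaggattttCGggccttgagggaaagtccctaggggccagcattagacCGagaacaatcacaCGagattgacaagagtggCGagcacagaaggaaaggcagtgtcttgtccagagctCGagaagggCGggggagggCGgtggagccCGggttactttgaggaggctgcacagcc
The Tnfsf11 stretch lies on the minus strand at chr14:78308044-78308293 and holds 4 CpG in 250 bases. Of 32851 promoters in the table, 37.8% hold fewer CpG over this length. The Tnfrsf11a stretch lies on the plus strand at chr1:105780473-105780672 and holds 22 CpG in 200 bases, and 92.7% of promoters hold fewer over that length. The Csf1 stretch lies on the minus strand at chr3:107760470-107760719 and holds 10 CpG in 250 bases, and 62.2% of promoters hold fewer. The letters TATAA were searched on both strands. They occur in Tnfsf11 on both strands, in matches that overlap, with TATAA on the gene's strand ending 26 bases before the gene start. Of all promoters at that length 22.8% hold these letters, and 17.8% at 200 bases. They are not in the stretches of Tnfrsf11a or Csf1. CpG methylation and the Polycomb mark at these promoters were not analysed here, and the matches are descriptions of letters only.

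The depth was 46272076 to 77698781 counts per library, so 1 count was worth 0.0127 to 0.0203 CPM (counts per 1000000, after scaling of the libraries). The libraries were placed in 3 sets, which cut across the groups: set 3 by a high share of the nuclear RNA Malat1, and the others, whose shares overlap, by group label into sets 1 and 2. Malat1 took 0.0296% to 0.0386% of counts in YOUNG 1 and 2 and OLD 1 and 3 (set 1), and 0.0334% to 0.0435% in CKO-YOUNG 1 and 2 and CON-YOUNG 1 and 2 (set 2). It took 0.0957% to 0.223% in the other 10 libraries (set 3), among them the 3 of CON-OLD-iBP and the 3 of CKO-OLD. Set 1 held Xist at 391 to 481 CPM and Ddx3y, a Y-linked gene, at 0, whereas all other libraries held 21.3 to 91.8 CPM of Ddx3y and CKO-YOUNG 3 held Xist as well, at 372 CPM. OLD 1 and OLD 3 were nearer to each other than any other pair of one group, with a median squared count difference 6.25 times that of counting noise, against 16.8 to 247 times in the other pairs, and were kept as 2 libraries. Kdm2b was counted over the whole gene at 16.2 to 58.2 CPM in every library, which does not check a deletion of 1 domain. Of the 13 osteoblast markers, Sp7 and Alpl were present in every library, at 25.6 to 247 CPM and 43.4 to 1365 CPM. The osteocalcin genes Bglap and Bglap2, on the same list, were not. They stood at 0.0 to 0.306 and 0.0 to 1.97 CPM in CKO-YOUNG, and at 0.0 to 9.89 and 0.0 to 13.4 CPM in CON-YOUNG. In bulk RNA, fewer cells of a type and less RNA per cell cannot be told apart.

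The 5 genes differed widely in how much they varied. Csf1 varied least, 4.48-fold between its highest and lowest library, and 52.1% of the 16566 genes tested had a smaller range. Tnfsf11 ranged 12.1-fold and Il34 16.3-fold, ranges wider than those of 69.5% and 74.7% of genes tested. Tnfrsf11b ranged 61.5-fold, and 90.8% of genes had a smaller range. Tnfrsf11a ranged 276-fold, from 12 to 4039 counts, and 97.1% of genes had a smaller range. All 5 passed the filter on low counts. The plot of levels by library shows that for Tnfrsf11a the libraries of set 1, and those of set 2, lay closer together than the libraries of OLD or of YOUNG did.

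**Figure D1:**
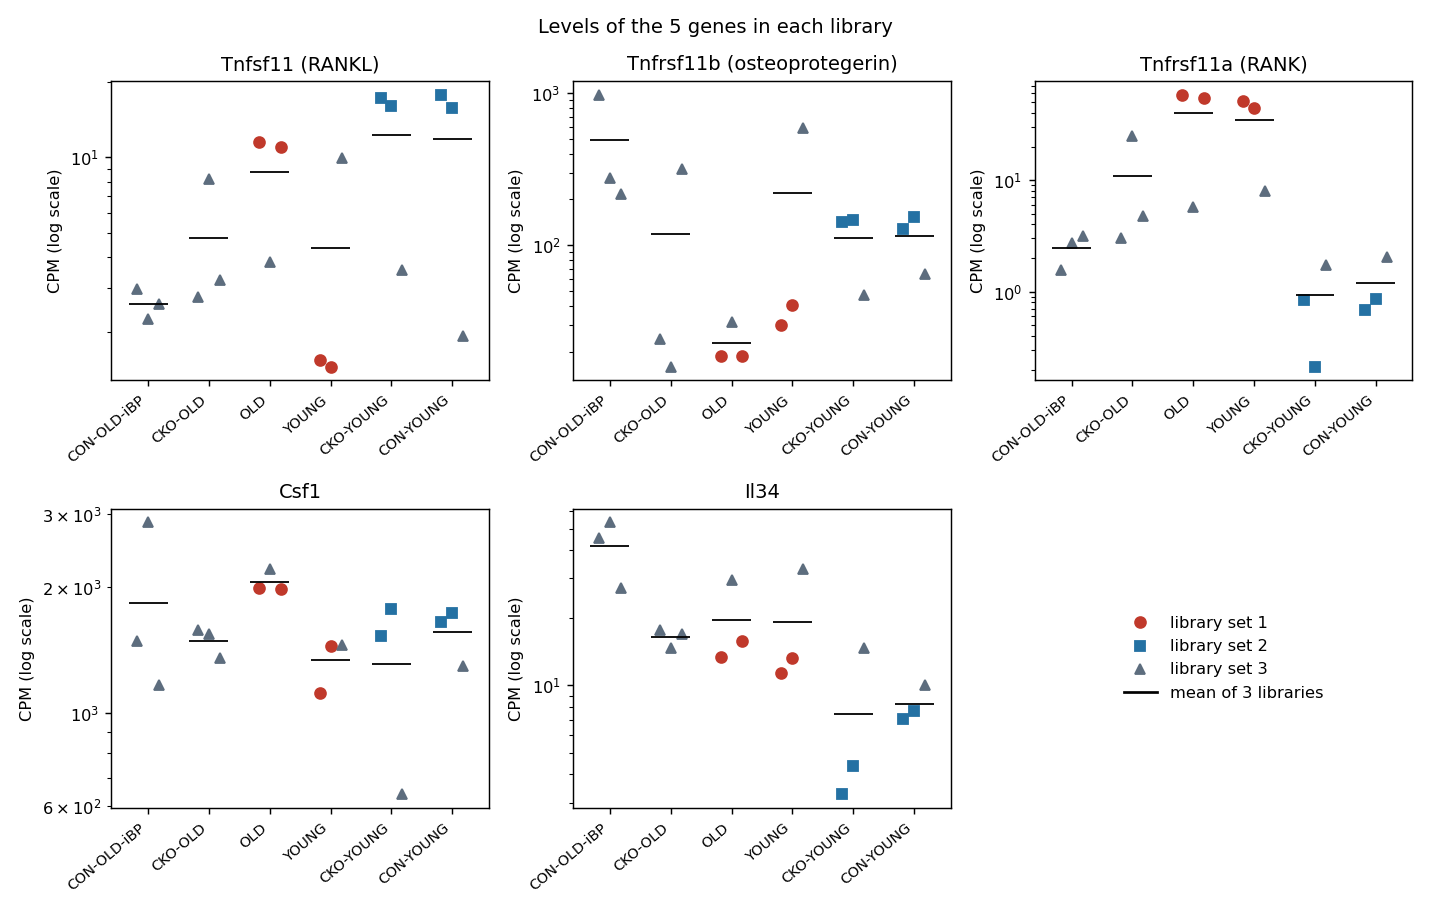
CPM of each gene (log scale) in every library, by group, with symbols for the 3 library sets and a bar for the mean of 3 libraries. The 4 libraries of set 1 hold Tnfrsf11a at 43.9 to 58.4 CPM and the 4 of set 2 at 0.212 to 0.864 CPM.

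Tnfsf11, which encodes the ligand RANKL, was a low transcript with 101 to 1064 counts per library. It stood at 2.97, 2.26 and 2.59 CPM in CON-OLD-iBP, at 2.78, 8.23 and 3.23 CPM in CKO-OLD, and at 11.5, 3.82 and 11.0 CPM in OLD. It stood at 1.56, 1.46 and 9.98 CPM in YOUNG, at 17.3, 16.0 and 3.56 CPM in CKO-YOUNG, and at 17.8, 15.8 and 1.94 CPM in CON-YOUNG. The highest values were the 4 libraries of set 2 at 15.8 to 17.8 CPM, and both young groups of the knockout line also held a library under 4 CPM. By group mean the order was CKO-YOUNG 12.3 ± 7.58, CON-YOUNG 11.8 ± 8.64, OLD 8.77 ± 4.30, CKO-OLD 4.75 ± 3.03, YOUNG 4.34 ± 4.89 and CON-OLD-iBP 2.61 ± 0.357 CPM (SD, n = 3 each). Every neighbouring pair in that order overlapped.

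Tnfrsf11b, which encodes the decoy OPG, stood at 975, 278 and 218 CPM in CON-OLD-iBP, at 24.3, 15.9 and 317 CPM in CKO-OLD, and at 18.7, 31.3 and 18.7 CPM in OLD. It stood at 30.0, 40.6 and 592 CPM in YOUNG, at 143, 146 and 47.3 CPM in CKO-YOUNG, and at 127, 153 and 64.4 CPM in CON-YOUNG. In CKO-OLD and in YOUNG a single library stood far above the rest, with a highest value 20.0 and 19.7 times the lowest, whereas the 3 OLD libraries lay within 1.68-fold. The group means ran from 491 ± 421 CPM in CON-OLD-iBP over 221 ± 322 in YOUNG, 119 ± 171 in CKO-OLD, 115 ± 45.4 in CON-YOUNG and 112 ± 56.1 in CKO-YOUNG to 22.9 ± 7.29 in OLD (SD, n = 3 each). Of the neighbours in that order, CKO-YOUNG and OLD did not overlap, and all others did.

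Tnfrsf11a, which encodes the receptor RANK, stood at 1.56, 2.72 and 3.12 CPM in CON-OLD-iBP, at 3.00, 25.1 and 4.75 CPM in CKO-OLD, and at 58.4, 5.73 and 55.0 CPM in OLD. It stood at 51.3, 43.9 and 7.96 CPM in YOUNG, at 0.85, 0.212 and 1.74 CPM in CKO-YOUNG, and at 0.685, 0.864 and 2.06 CPM in CON-YOUNG. The 6 young libraries of the knockout line were at or under 2.06 CPM, and within OLD and YOUNG the single library of set 3 was far below the pair of set 1. By group mean the order was OLD 39.7 ± 29.5, YOUNG 34.4 ± 23.2, CKO-OLD 10.9 ± 12.3, CON-OLD-iBP 2.46 ± 0.813, CON-YOUNG 1.20 ± 0.749 and CKO-YOUNG 0.931 ± 0.766 CPM (SD, n = 3 each). Each neighbouring pair overlapped.

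Csf1, the secreted growth factor of macrophages and osteoclast precursors, was abundant, with a mean above that of 99.8% of genes tested. It stood at 1486, 2860 and 1168 CPM in CON-OLD-iBP, at 1577, 1542 and 1350 CPM in CKO-OLD, and at 1991, 2215 and 1978 CPM in OLD. It stood at 1116, 1443 and 1456 CPM in YOUNG, at 1528, 1772 and 638 CPM in CKO-YOUNG, and at 1653, 1731 and 1296 CPM in CON-YOUNG. The 3 OLD libraries were all above the 3 YOUNG and the 3 CKO-OLD libraries, and the extremes of the series were CON-OLD-iBP 2 and CKO-YOUNG 3. The group means were 2061 ± 133 in OLD, 1838 ± 899 in CON-OLD-iBP, 1560 ± 232 in CON-YOUNG, 1490 ± 122 in CKO-OLD, 1338 ± 193 in YOUNG and 1313 ± 597 CPM in CKO-YOUNG (SD, n = 3 each), and each neighbouring pair overlapped.

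Il34, which encodes the other ligand of CSF1R, stood at 45.3, 53.3 and 27.2 CPM in CON-OLD-iBP, at 17.6, 14.6 and 16.9 CPM in CKO-OLD, and at 13.4, 29.5 and 15.8 CPM in OLD. It stood at 11.3, 13.3 and 33.1 CPM in YOUNG, at 3.26, 4.38 and 14.6 CPM in CKO-YOUNG, and at 7.08, 7.65 and 10.0 CPM in CON-YOUNG. The lowest 4 values were the libraries of set 2, and the highest 2 were CON-OLD-iBP 2 and 1. The group means were 41.9 ± 13.4 in CON-OLD-iBP, 19.6 ± 8.70 in OLD, 19.2 ± 12.1 in YOUNG, 16.3 ± 1.60 in CKO-OLD, 8.26 ± 1.57 in CON-YOUNG and 7.41 ± 6.24 CPM in CKO-YOUNG (SD, n = 3 each). Only CKO-OLD and CON-YOUNG did not overlap among the neighbours in that order.

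OLD against YOUNG addresses aging in wild-type cells. In OLD libraries the decoy Tnfrsf11b averaged 22.9 CPM and in YOUNG libraries 221 CPM, and Csf1 averaged 2061 CPM in OLD and 1338 CPM in YOUNG, the single member whose groups did not overlap. None of the 5 genes passed edgeR's quasi-likelihood test with Benjamini-Hochberg adjustment at 0.05, where 0.0% of 16566 genes passed (0 genes, with 554 at an unadjusted p under 0.05, while DESeq2 called 43 genes, or 0.235%, and no member). Groups that did not overlap were found for 11.4% of all genes. The log2 fold change of Tnfrsf11b was -3.27 (SE 1.23, edgeR adjusted p = 1.0), and without YOUNG 3 it was -0.63. For Csf1 it was 0.62 (SE 0.34, edgeR adjusted p = 1.0), with 0.63 in set 1 and 0.60 in set 3. Tnfrsf11a and Il34 had log2 fold changes of 0.21 (SE 0.94) and 0.03 (SE 0.52).

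Tnfsf11 had a log2 fold change of 1.02 (SE 0.86, edgeR adjusted p = 1.0) between OLD and YOUNG, and of 2.54 without YOUNG 3 (edgeR adjusted p = 0.899). Within set 1 it stood at 11.5 and 11.0 CPM in OLD against 1.56 and 1.46 CPM in YOUNG, a log2 fold change of 2.89 (SE 0.45, edgeR adjusted p = 0.0247), in a contrast where 0.38% of genes passed. Its OLD side is the unusually alike pair OLD 1 and OLD 3 (6.25 times counting noise), so the spread behind this p may be too small. Within set 3 the single OLD library held 3.82 CPM and the single YOUNG library 9.98 CPM, a log2 fold change of -1.39 (SE 0.60, edgeR adjusted p = 0.431), where 0.0543% of genes passed. That fit assumes that a lone library varies like the rest. Tnfsf11 was thus higher in OLD than in YOUNG in set 1, with the opposite order in set 3. Osteoclast markers differed within set 1 as well. Acp5, the phosphatase TRAP, stood at 596 and 632 CPM in OLD 1 and 3 against 7.81 and 14.0 CPM in YOUNG 1 and 2, with 25.8 CPM in OLD 2 and 6.49 CPM in YOUNG 3. Dcstamp, needed for osteoclast fusion, stood at 33.4, 0.424 and 35.5 CPM in OLD and at 0.94, 2.44 and 0.0 CPM in YOUNG. The 15 osteoclast markers summed to 2587, 547 and 2649 CPM in OLD and to 593, 537 and 693 CPM in YOUNG. Over all libraries 11 of them had positive and 4 negative fold changes, with a median of 2.86 on the log2 scale beside -0.03 for all genes, and none passed. Their part in the result was not tested.

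CKO-YOUNG against CON-YOUNG is the comparison of deletion within 1 mouse line. Bglap, the gene of osteocalcin, whose promoter drives the Cre, was at 0.0 to 0.306 CPM in CKO-YOUNG and 0.0 to 9.89 CPM in CON-YOUNG. Kdm2b counts do not check the deletion, so its extent in these cultures was not tested. The log2 fold changes of all 5 genes were small: 0.05 for Tnfsf11 (SE 0.85), -0.03 for Tnfrsf11b (SE 1.12), -0.36 for Tnfrsf11a (SE 0.98), -0.25 for Csf1 (SE 0.34) and -0.16 for Il34 (SE 0.52). No member passed (edgeR adjusted p = 1.0 for each), where 0.127% of genes did, and no member had groups apart, where 8.51% of genes had. With the replicate number as a block no member passed either (edgeR adjusted p = 0.952 for each), and no gene passed there, with 713 at an unadjusted p under 0.05. Within set 2, Il34 stood at 3.26 and 4.38 CPM in CKO-YOUNG against 7.08 and 7.65 CPM in CON-YOUNG, a log2 fold change of -0.95 (SE 0.28, edgeR adjusted p = 0.232, where 0.459% of genes passed). Within set 3 the pair was 14.6 CPM in CKO-YOUNG and 10.0 CPM in CON-YOUNG. With the block the log2 fold changes were 0.27 for Tnfsf11 (SE 0.26), -0.12 for Tnfrsf11b (SE 0.17), -0.62 for Tnfrsf11a (SE 0.70), -0.37 for Csf1 (SE 0.27) and -0.47 for Il34 (SE 0.40).

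CKO-OLD against OLD combined deletion with a change of mouse line. Tnfrsf11b was at 119 CPM in CKO-OLD and 22.9 CPM in OLD, a log2 fold change of 2.38 (SE 1.18, edgeR adjusted p = 0.63), and without CKO-OLD 3 it was -0.19. Tnfrsf11a was at 10.9 CPM in CKO-OLD and 39.7 CPM in OLD, a log2 fold change of -1.86 (SE 0.97, edgeR adjusted p = 0.64), but 0.93 within set 3, where OLD was OLD 2 alone, and -3.36 without CKO-OLD 2. Csf1 was the member with groups apart, at 1350 to 1577 CPM in CKO-OLD and 1978 to 2215 CPM in OLD, a log2 fold change of -0.47 (SE 0.34, edgeR adjusted p = 0.758). Groups that did not overlap were found for 17.4% of genes. Tnfsf11 and Il34 had log2 fold changes of -0.89 (SE 0.86) and -0.26 (SE 0.52). No member passed, where 0.00604% of genes did. The difference of CKO-OLD against OLD and CKO-YOUNG against CON-YOUNG was tested as an interaction. It is called here the deletion effect in old minus young, or the difference of deletion effects. Because OLD is of another line, it also holds the change of mouse line, which cannot be told apart from deletion in it. This interaction passed for no member and for no gene, where 796 genes had an unadjusted p under 0.05. By DESeq2, 56 genes (0.307%) and no member passed there. The largest of the 5 was Tnfrsf11b at 2.41 (SE 1.61, edgeR adjusted p = 0.963), and it was -0.16 without CKO-OLD 3.

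In CON-OLD-iBP against OLD, Tnfrsf11b, Tnfrsf11a and Tnfsf11 had their largest fold changes of the 6 comparisons. OPG transcript was higher and RANK and RANKL transcripts were lower in every CON-OLD-iBP library than in every OLD library, 3 of 5 members apart where 30.2% of genes were. Tnfrsf11b had a log2 fold change of 4.42 (SE 1.29, edgeR adjusted p = 0.0726) and Tnfrsf11a one of -4.01 (SE 1.06, edgeR adjusted p = 0.0618). Tnfsf11 had one of -1.75 (SE 0.88, edgeR adjusted p = 0.244), Il34 one of 1.10 (SE 0.52, edgeR adjusted p = 0.22) and Csf1 one of -0.17 (SE 0.34, edgeR adjusted p = 0.813). No member passed with edgeR, where 0.0241% of genes did. With DESeq2, Tnfrsf11b (4.44, adjusted p = 0.000737) and Tnfrsf11a (-3.98, adjusted p = 0.000603) passed, in a fit where 13.2% of genes did. Without OLD 2, Tnfrsf11a also passed with edgeR (-4.52, adjusted p = 0.0206, 7.87% of genes). Within set 3, where OLD 2 was the only OLD library, the fold changes on the log2 scale were 3.97 (SE 1.66) for Tnfrsf11b, -1.22 (SE 0.89) for Tnfrsf11a and -0.55 (SE 0.47) for Tnfsf11, none past the edgeR threshold, which 0.857% of genes passed.

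CON-OLD-iBP against CKO-OLD lay wholly within set 3, but iBP and deletion cannot be told apart in it. Il34 was the member with groups apart, at 27.2 to 53.3 CPM in CON-OLD-iBP and 14.6 to 17.6 CPM in CKO-OLD, where 30.5% of genes were apart. Its log2 fold change was 1.36 (SE 0.53, edgeR adjusted p = 0.18) with the spread of all groups and 1.36 (SE 0.23, edgeR adjusted p = 0.00257) with the spread within library sets, where 18.7% of genes passed. The spread within sets draws in part on the unusually alike pair OLD 1 and OLD 3, so it may be too small. Il34 also passed with a term for library set (edgeR adjusted p = 0.0129, where 12.3% of genes passed) and with the 2 groups alone (1.39, edgeR adjusted p = 0.0372, 4.44% of genes). It did not pass with the 2 groups and the replicate block (1.34, edgeR adjusted p = 0.0562, 4.24% of genes), with limma-voom (1.31, adjusted p = 0.114, 1.57% of genes) or with DESeq2 (adjusted p = 0.0819, 8.94% of genes). Tnfrsf11a was at 2.46 CPM in CON-OLD-iBP and 10.9 CPM in CKO-OLD, a log2 fold change of -2.15 (SE 0.99, edgeR adjusted p = 0.243), which passed with the spread within sets (edgeR adjusted p = 0.0496) and was -0.65 without CKO-OLD 2. Tnfrsf11b had a log2 fold change of 2.04 (SE 1.17, edgeR adjusted p = 0.348), and 4.61 without CKO-OLD 3 and 1.06 without CON-OLD-iBP 1. Tnfsf11 and Csf1 had log2 fold changes of -0.86 (SE 0.86) and 0.30 (SE 0.34). No member passed with the spread of all groups, where 1.29% of genes did.

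CKO-OLD against CKO-YOUNG gives age within the knockout line, but sets CKO-OLD, all of set 3, against a CKO-YOUNG group with 2 libraries of set 2. Tnfrsf11a was at 3.00 to 25.1 CPM in CKO-OLD and 0.212 to 1.74 CPM in CKO-YOUNG, the single member with groups apart, where 31.5% of genes were. Its log2 fold change was 3.54 (SE 1.05, edgeR adjusted p = 0.0791). It passed with DESeq2 (3.57, adjusted p = 0.00268, 12.6% of genes) and without CKO-YOUNG 3 (4.36, edgeR adjusted p = 0.0383, 15.7% of genes), and was 2.05 without CKO-OLD 2. Il34 was at 16.3 CPM in CKO-OLD and 7.41 CPM in CKO-YOUNG, a log2 fold change of 1.14 (SE 0.52, edgeR adjusted p = 0.196). Without CKO-YOUNG 3 it passed at 2.10 (edgeR adjusted p = 0.017), whereas within set 3, where CKO-YOUNG 3 stood alone, it was 0.16. Tnfsf11, Tnfrsf11b and Csf1 had log2 fold changes of -1.37 (SE 0.87), 0.09 (SE 1.12) and 0.18 (SE 0.34). That of Tnfsf11 was 0.68 with a term for library set and 0.42 within set 3. Without CKO-OLD 3, that of Tnfrsf11b was -2.48. No member passed over all libraries, where 0.7% of genes did.

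**Figure D2:**
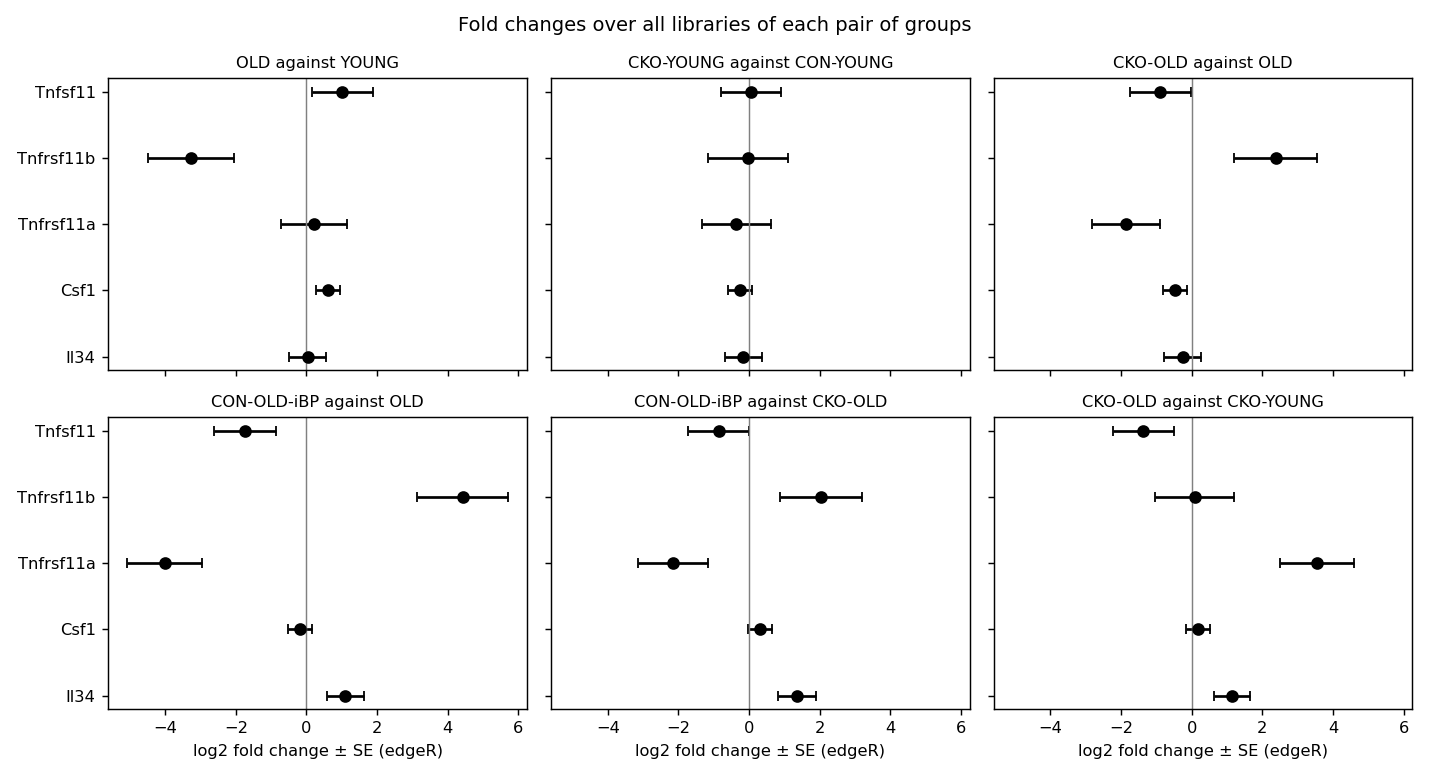
Log2 fold change and its standard error (edgeR, all libraries) of the 5 genes in 6 comparisons, with 0 as a grey line. Tnfrsf11b (4.42) and Tnfrsf11a (-4.01) in CON-OLD-iBP against OLD lie farthest from 0, and all 5 genes lie within 0.36 of 0 in CKO-YOUNG against CON-YOUNG.

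**Figure D3:**
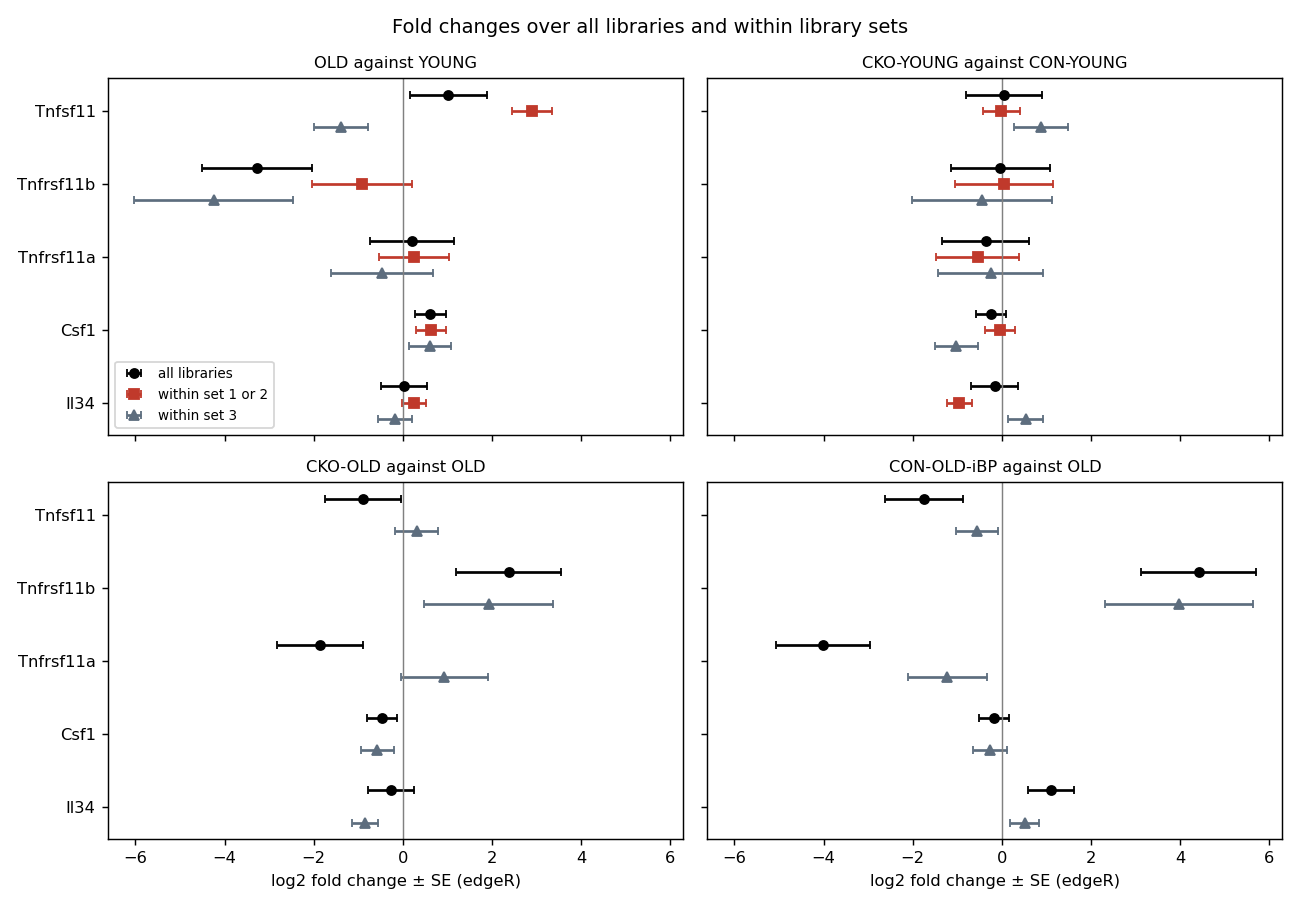
Log2 fold change and standard error (edgeR) over all libraries (black circles), within set 1 or set 2 (red squares) and within set 3 (grey triangles) in 4 comparisons. Tnfsf11 in OLD against YOUNG is 2.89 within set 1 and -1.39 within set 3, and Csf1 is 0.60 to 0.63 in each.

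The ratio of RANKL to OPG is the usual measure of how strongly osteoblasts drive osteoclast formation. It was taken within each library as the log2 ratio of Tnfsf11 to Tnfrsf11b counts, which no library scaling can change. It compares libraries and not the absolute amounts of both transcripts, since transcript length was not used. The ratio was -8.35, -6.94 and -6.39 in CON-OLD-iBP, -3.13, -0.94 and -6.61 in CKO-OLD, and -0.70, -3.03 and -0.76 in OLD. It was -4.26, -4.78 and -5.89 in YOUNG, -3.05, -3.19 and -3.73 in CKO-YOUNG, and -2.84, -3.27 and -5.05 in CON-YOUNG. The OLD libraries were all above the YOUNG and the CON-OLD-iBP libraries, and CKO-OLD spread from -6.61 to -0.94.

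The mean ratio was 3.48 log2 units higher in OLD (-1.50 ± 1.33) than in YOUNG (-4.98 ± 0.83; SD, n = 3 each), a factor of 11.1 (two-sided exact permutation p = 0.1, 0.3 adjusted over 12 ratio tests). It differed by -5.73 between CON-OLD-iBP (-7.23 ± 1.01) and OLD, a factor of 53.0 (exact permutation p = 0.1, adjusted 0.3). With 3 libraries against 3 the smallest exact p is 0.1, so no ratio could pass 0.05. The OLD mean counts the unusually alike OLD 1 and OLD 3 (-0.70 and -0.76) as 2 libraries, beside -3.03 in OLD 2. The difference was -2.06 for CKO-OLD (-3.56 ± 2.86) against OLD (exact p = 0.2) and -3.67 for CON-OLD-iBP against CKO-OLD (exact p = 0.2). It was 0.40 for CKO-YOUNG (-3.32 ± 0.36) against CON-YOUNG (-3.72 ± 1.17; exact p = 0.8) and -0.24 for CKO-OLD against CKO-YOUNG (exact p = 0.9). OLD exceeded YOUNG in set 1 and in set 3, where OLD 2 was at -3.03 and YOUNG 3 at -5.89. In set 3, however, Tnfsf11 itself was lower in OLD 2 (3.82 CPM) than in YOUNG 3 (9.98 CPM). Tnfrsf11b stood at 31.3 CPM in OLD 2 and at 592 CPM in YOUNG 3, the library with the highest chondrocyte marker sum (16128 CPM). The part of those markers in the ratio was not tested.

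The log2 ratio of Csf1 to Il34, the ligands of CSF1R, was 5.04, 5.75 and 5.42 in CON-OLD-iBP, 6.48, 6.73 and 6.32 in CKO-OLD, and 7.21, 6.23 and 6.97 in OLD. It was 6.62, 6.76 and 5.46 in YOUNG, 8.87, 8.66 and 5.45 in CKO-YOUNG, and 7.87, 7.82 and 7.01 in CON-YOUNG. CON-OLD-iBP lay below every library of CKO-OLD and of OLD, by 1.11 and 1.40 in the means (exact permutation p = 0.1 each, adjusted 0.3). The other 4 differences were 0.52 for OLD against YOUNG (exact p = 0.4), 0.09 for CKO-YOUNG against CON-YOUNG (exact p = 1.0), -0.29 for CKO-OLD against OLD (exact p = 0.5) and -1.15 for CKO-OLD against CKO-YOUNG (exact p = 0.4).

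**Figure D4:**
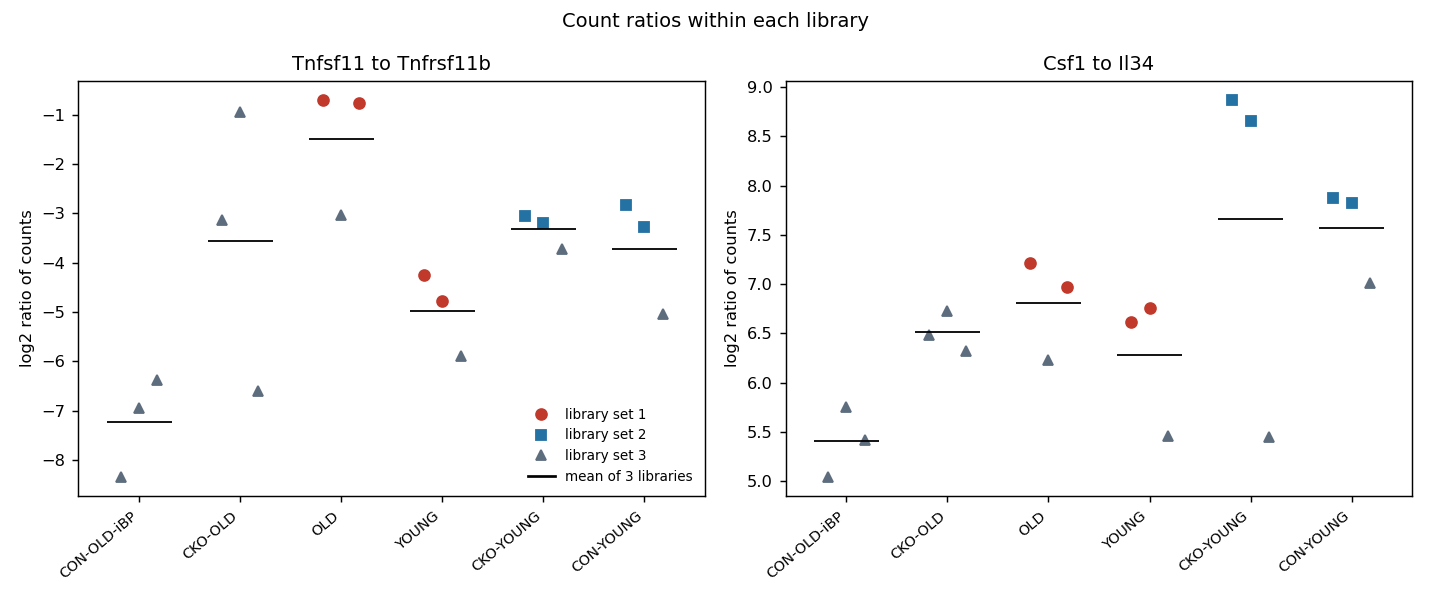
Log2 ratio of counts within each library, Tnfsf11 to Tnfrsf11b (left) and Csf1 to Il34 (right), by group, with symbols for library sets and a bar for the mean of 3 libraries. OLD lies between -3.03 and -0.70 on the left, above all of YOUNG and of CON-OLD-iBP.

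The receptor of both CSF1R ligands followed RANK. Csf1r stood at 27.0, 49.8 and 47.7 CPM in CON-OLD-iBP, at 95.2, 389 and 107 CPM in CKO-OLD, and at 815, 87.9 and 842 CPM in OLD. It stood at 1148, 885 and 224 CPM in YOUNG, at 14.5, 10.7 and 32.1 CPM in CKO-YOUNG, and at 11.9, 13.1 and 34.0 CPM in CON-YOUNG. Over the 18 libraries Tnfrsf11a and Csf1r had a Spearman correlation of 0.965, and 0.915 over the 10 of set 3, as a description of libraries that share sets and groups. The 24 macrophage and monocyte markers, Csf1r among them, summed to 583 to 1021 CPM in CON-OLD-iBP, 1474 to 6301 CPM in CKO-OLD and 1504 to 12138 CPM in OLD. They summed to 4037 to 17276 CPM in YOUNG, 166 to 1039 CPM in CKO-YOUNG and 226 to 510 CPM in CON-YOUNG, with at most 1 marker at 0 in any library. All 24 had negative fold changes in CON-OLD-iBP against OLD, with a median of -3.76 on the log2 scale beside -4.01 for Tnfrsf11a. All 24 were positive in CKO-OLD against CKO-YOUNG, with a median of 2.57 beside 3.54 for Tnfrsf11a, and in both comparisons none passed edgeR's adjusted threshold, where the median of all genes was 0.0 and -0.0. In CKO-OLD against OLD all 24 were negative, with a median of -1.66 beside -1.86 for Tnfrsf11a. In 2 comparisons the list and Tnfrsf11a had opposite signs. In OLD against YOUNG, 23 markers were negative and 1 positive, with a median of -0.42 beside 0.21 for Tnfrsf11a. In CKO-YOUNG against CON-YOUNG, 19 were positive and 5 negative, with a median of 0.54 beside -0.36 for Tnfrsf11a. The part of these markers in the RANK differences was not tested. The 15 osteoclast markers summed to 499.7 to 702 CPM in CON-OLD-iBP, 478 to 707 CPM in CKO-OLD, 398 to 429.5 CPM in CKO-YOUNG and 439 to 453 CPM in CON-YOUNG. Ctsk, the protease cathepsin K, was at 65.3 to 666 CPM over all libraries, and Acp5 reached 95.1 CPM in CKO-OLD 2. Dcstamp, Ocstamp and Calcr were at or under 2.44 CPM in every library except OLD 1 and OLD 3. B cell and T cell markers summed to at most 1.07 and 1.79 CPM.

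OPG transcript moved in part with chondrocyte markers. The 3 libraries with most Tnfrsf11b, CON-OLD-iBP 1, YOUNG 3 and CKO-OLD 3, were also the 3 with most of the 8 chondrocyte markers, which summed to 11623, 16128 and 10274 CPM there. Acan, the cartilage proteoglycan aggrecan, stood at 378, 649 and 501 CPM in these libraries and at or under 16.3 CPM in the others apart from CON-YOUNG 3, which had the next highest chondrocyte sum. CON-OLD-iBP 2 and 3 held 278 and 218 CPM of Tnfrsf11b with chondrocyte sums of 802 and 1407 CPM, and CON-YOUNG 3 held 64.4 CPM with a sum of 4667 CPM. The part of cartilage-type transcripts in the OPG differences was not tested. Without CON-OLD-iBP 1, the log2 fold change of Tnfrsf11b in CON-OLD-iBP against OLD was 3.42 (edgeR adjusted p = 0.224).

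**Figure D5:**
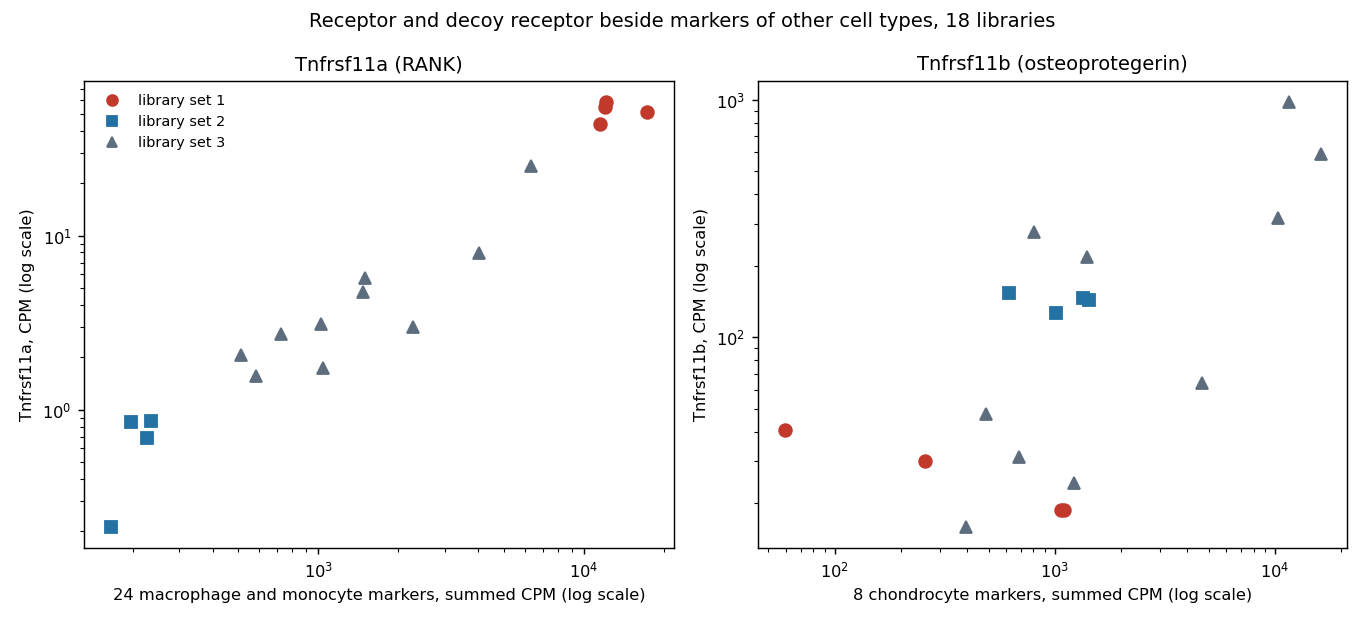
Tnfrsf11a against 24 summed macrophage and monocyte markers (left) and Tnfrsf11b against 8 summed chondrocyte markers (right), 1 point per library, in CPM on log axes, with symbols for library sets. Tnfrsf11a climbs with the macrophage sum over all 3 sets, and on the right the 3 libraries with 10274 to 16128 CPM of chondrocyte markers hold the most Tnfrsf11b.

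Other partners of the axis were followed in the same way. Lgr4, a further receptor of RANKL, stood at 90.2, 57.9 and 70.9 CPM in CON-OLD-iBP, at 27.9, 24.8 and 43.4 CPM in CKO-OLD, and at 58.9, 27.1 and 60.4 CPM in OLD. In CON-OLD-iBP against CKO-OLD its groups did not overlap, as for 30.5% of all genes, with a log2 fold change of 1.19 (SE 0.44, edgeR adjusted p = 0.163). It stood at 21.6, 23.6 and 65.9 CPM in YOUNG, at 50.9, 58.9 and 23.7 CPM in CKO-YOUNG, and at 52.5, 55.6 and 50.9 CPM in CON-YOUNG. Tnfsf10 (TRAIL), another ligand that OPG captures, was at or under 0.739 CPM in every library.

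The lists of pathway genes were mostly without calls. Of 29 genes of RANK signalling, 9 of the CSF1 receptor side, 28 upstream regulators of RANKL and OPG, 11 further ligands and receptors and 35 other osteoblast signals to osteoclasts, none passed in OLD against YOUNG, CKO-YOUNG against CON-YOUNG, CKO-OLD against OLD or CON-OLD-iBP against OLD. In CON-OLD-iBP against OLD the median log2 fold changes of these lists were 0.11, -0.73, -0.26, -0.19 and -0.53, beside 0.0 for all genes. In OLD against YOUNG they were -0.14, -0.29, 0.09, -0.49 and -0.29, beside -0.03 for all genes. In CKO-YOUNG against CON-YOUNG they lay between -0.15 and 0.14. In CON-OLD-iBP against CKO-OLD, where 1.29% of all genes passed (119 higher and 94 lower), 2 of 28 upstream regulators were lower and none higher, with a list median of -0.30 beside -0.01 for all genes. All 13 osteoblast markers, Pth1r among them, had negative fold changes there, with a median of -0.71 on the log2 scale, and their part in the differences of this comparison was not tested. Pth1r, the receptor of parathyroid hormone, stood at 28.5 ± 12.2 CPM in CON-OLD-iBP and 157 ± 30.1 CPM in CKO-OLD (SD, n = 3 each; log2 fold change -2.46, SE 0.49, edgeR adjusted p = 0.0282). In OLD it averaged 64.1 CPM. Stat3, which carries signals of IL-6 family cytokines, stood at 125 ± 20.0 CPM in CON-OLD-iBP and 204 ± 32.5 CPM in CKO-OLD (log2 fold change -0.71, SE 0.15, edgeR adjusted p = 0.0431). Both also passed with a term for library set (edgeR adjusted p = 0.00248 and 0.0128). Among the other osteoblast signals, 1 of 35 was lower and none higher: Efna2, a membrane-bound ephrin, stood at 1.75 ± 1.09 CPM in CON-OLD-iBP and 7.47 ± 2.30 CPM in CKO-OLD (log2 fold change -2.09, SE 0.47, edgeR adjusted p = 0.046). Of the 15 osteoclast markers, 10 had negative and 5 positive fold changes there, with a median of -0.45 on the log2 scale. Only Itgb3, the integrin beta-3 subunit, passed, at 93.7 ± 41.9 CPM in CON-OLD-iBP and 12.8 ± 3.89 CPM in CKO-OLD (log2 fold change 2.87, SE 0.63, edgeR adjusted p = 0.0443). All 24 macrophage and monocyte markers had negative fold changes in this comparison, with a median of -2.03.

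In CKO-OLD against CKO-YOUNG, where 0.7% of all genes passed (56 higher and 60 lower), 2 of 35 other osteoblast signals were higher and none lower, with a list median of 0.84 beside -0.0 for all genes. Il6, a cytokine that raises RANKL in osteoblasts, stood at 7.93 ± 0.372 CPM in CKO-OLD and 0.441 ± 0.134 CPM in CKO-YOUNG (SD, n = 3 each; log2 fold change 4.16, SE 0.56, edgeR adjusted p = 0.0253). Spp1, the matrix protein osteopontin, stood at 11277 ± 835 CPM in CKO-OLD and 1895 ± 434 CPM in CKO-YOUNG (log2 fold change 2.57, SE 0.42, edgeR adjusted p = 0.0253). Of the 29 RANK signalling genes 1 was higher and 1 lower. Mitf, a transcription factor of osteoclasts among other cells, stood at 18.0 ± 3.90 CPM in CKO-OLD and 5.11 ± 1.20 CPM in CKO-YOUNG (log2 fold change 1.82, SE 0.30, edgeR adjusted p = 0.0253). Chuk, the kinase IKK-alpha of the NF-kappaB pathway, stood at 43.7 ± 6.79 CPM in CKO-OLD and 77.4 ± 12.1 CPM in CKO-YOUNG (log2 fold change -0.82, SE 0.16, edgeR adjusted p = 0.038). With a term for library set none of these 4 passed, nor did any member, where 0.0362% of genes passed (edgeR adjusted p = 0.0959 for Il6 and for Mitf, 0.123 for Spp1 and 0.156 for Chuk). Within set 3, against CKO-YOUNG 3 alone, 5.38% of genes and no member passed; Il6, Spp1 and Mitf passed (edgeR adjusted p = 0.0062, 0.00337 and 0.0117) and Chuk did not (edgeR adjusted p = 0.0852). Bglap, the gene of osteocalcin, whose promoter drives the Cre, also passed over all libraries, at 58.8 ± 21.7 CPM in CKO-OLD and 0.153 ± 0.153 CPM in CKO-YOUNG (log2 fold change 8.53, SE 1.66, edgeR adjusted p = 0.0389), and was at 0.0 to 9.89 CPM in CON-YOUNG. With a term for library set it did not pass (log2 fold change 6.34, edgeR adjusted p = 0.101).

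The genes whose levels followed each member most closely over the 18 libraries were ranked by Spearman correlation of log2 CPM, as a description of libraries that share sets, groups and depth. For Tnfrsf11a they were Pid1 (0.986), Shtn1 (0.983), Spi1 (0.981), Zc3h12d and C3ar1 (0.977 each), with Pearson correlations of 0.941 to 0.988 over the 18, and Spearman correlations of 0.915 to 1.0 over the 10 libraries of set 3. Spi1, the transcription factor PU.1, is also on the macrophage list. For Tnfrsf11b they were Slc20a1 (0.901), Rgp1 (0.899), Mcu and Zxdc (0.87 each) and Sertad2 (0.864), with Pearson 0.751 to 0.887, and Spearman 0.83 to 0.915 in set 3. For Il34 they were Cyp2j6 (0.959), Crabp2 (0.944), Calr3 (0.934), Sts and Avpi1 (0.93 each), with Pearson 0.774 to 0.942, and Spearman 0.661 to 0.939 in set 3. For Tnfsf11 they were Slc35g2 (0.864), Itpk1 (0.856), H2-Q10 (0.843), Crtc2 (0.839) and Kbtbd11 (0.831), with Pearson 0.717 to 0.86, and Spearman 0.418 to 0.624 in set 3. For Csf1 they included Serpinf1 (0.742), Fam53b (0.68), Deptor (0.674) and Mrps27 (0.668), with Pearson 0.544 to 0.654, and Spearman 0.491 to 0.806 in set 3. The Spearman correlation over the 18 libraries was -0.007 between Tnfsf11 and Tnfrsf11b and 0.082 between Csf1 and Il34.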

How the data were processed

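The 18 RNA libraries were used; 8 CUT&Tag libraries are not analysed here. Values deposited by the authors are whole-number counts of reads for each symbol, not normalized. Per the submitters' processing notes, FastQC, Trim Galore and HISAT2 were used with mm39, with versions, counting program, annotation and use of strand not given in the sources used here, so overlapping and antisense genes cannot be told apart. Groups and replicate numbers follow the submitters' titles. The filter filterByExpr of edgeR (count of at least 10, total of at least 15) left 16566 of the 20832 genes with counts. After TMM scaling, all 18 libraries entered one robust quasi-likelihood F test (12 residual degrees of freedom), two-sided, with Benjamini-Hochberg adjustment over all genes and a threshold of 0.05. The biological coefficient of variation was 51.9%. SE is the fold change on the log2 scale divided by the root of F. Ratios used counts plus 0.5 and exact permutation tests. CPM were computed from the counts with TMM library sizes. Set 3 holds libraries above 0.05% Malat1, and the others were parted by group label.

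The members, lists and library sets were chosen with earlier results of these data known. The rule for named genes took the 5 members, Csf1r, Tnfsf10 and Lgr4, list genes past the threshold, and the 5 genes most correlated with each member, of which 1 is not reported here. The osteoclast, chondrocyte and osteoblast markers given as examples were chosen after their values were seen. Between CKO-YOUNG and CON-YOUNG, deviations of libraries with the same number had correlations of 0.193 (replicate 1), 0.237 (replicate 2) and 0.305 (replicate 3). In no other comparison were all numbers above 0.1. CKO-YOUNG 1 was nevertheless most like CON-YOUNG 2. In both groups replicates 1 and 2 are of set 2 and replicate 3 is of set 3. These correlations therefore cannot tell pairing from library set, and the replicate block there also takes up the difference between sets. Alternatives were DESeq2, limma-voom, other scaling, no filter, the groups compared alone, a replicate block, library sets, and each replicate left out. The procedure was tested on simulated data. Fits were made with edgeR 4.0.16, DESeq2 1.42.0 and limma 3.58.1 under R 4.3.3, and the rest with scipy 1.17.1 and matplotlib 3.10.9 under Python 3.11.15.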

Additional observations from a re-analysis of the deposited data

How the results depend on the processing

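Every member had at least 12 counts in every library, and with 3 libraries a group across 3 sets the spread between libraries limits what can be detected. Over 530 alternative fits of the members' log2 fold changes, 471 kept their direction and side of the threshold, 11 passed it and 48 changed direction. The number of the 5 genes called was 0 over all libraries in each comparison with edgeR. In OLD against YOUNG it was 1 within set 1, where 0.38% of genes passed. With DESeq2 it was 2 in CON-OLD-iBP against OLD (13.2% of genes) and 1 in CKO-OLD against CKO-YOUNG (12.6%). DESeq2 was not repeated with a replicate left out. EdgeR with a replicate left out called 0 to 1 in CON-OLD-iBP against OLD (1 without OLD 2, 7.87% of genes). It called 0 to 2 in CKO-OLD against CKO-YOUNG (2 without CKO-YOUNG 3, 15.7%). In CON-OLD-iBP against CKO-OLD edgeR called 1 with the groups compared alone (4.44%), 1 with a term for library set (12.3%) and 2 within set 3 (18.7%). The causes were not tested.

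Within set 3 these log2 fold changes turned round: in OLD against YOUNG Tnfsf11 -1.39, Tnfrsf11a -0.47 and Il34 -0.17; in CKO-YOUNG against CON-YOUNG Il34 0.54; in CKO-OLD against OLD Tnfsf11 0.31 and Tnfrsf11a 0.93; in CKO-OLD against CKO-YOUNG Tnfsf11 0.42; and in the deletion effect in old minus young Tnfrsf11a 1.18 and Csf1 0.45. With a term for library set Tnfrsf11a was 0.67 for CKO-OLD against OLD and 1.10 for the difference of deletion effects, and Tnfsf11 0.68 in CKO-OLD against CKO-YOUNG. Within set 2, Tnfsf11 was -0.01 and Tnfrsf11b 0.05 in CKO-YOUNG against CON-YOUNG. With limma-voom Tnfrsf11a was -0.02 in OLD against YOUNG, Tnfrsf11b -1.0 in CKO-OLD against CKO-YOUNG and Il34 0.25 in the difference of deletion effects.

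With the replicate block Tnfrsf11b was -1.47 in CKO-OLD against CKO-YOUNG and Il34 0.07 in the difference of deletion effects. Beside the fit over all libraries the block changed no call of a member, but Il34 in CON-OLD-iBP against CKO-OLD passed with the groups alone (edgeR adjusted p = 0.0372) and not with the block (edgeR adjusted p = 0.0562), and in CKO-YOUNG against CON-YOUNG it left 0 genes called, against 21 over all libraries and 4 with the groups alone. For set 3 libraries only, the RANKL to OPG ratio difference was 0.17 in CKO-OLD against CKO-YOUNG, and the Csf1 to Il34 one was -1.56 in CKO-YOUNG against CON-YOUNG, 0.28 for CKO-OLD against OLD and 1.06 for CKO-OLD against CKO-YOUNG.

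With a replicate left out, these log2 values crossed 0. In OLD against YOUNG Tnfrsf11a ran from -0.25 to 0.72 and Il34 from -0.40 to 0.66. In CKO-YOUNG against CON-YOUNG Tnfsf11 ran from -0.45 to 0.49, Tnfrsf11b from -0.32 to 0.33, Tnfrsf11a from -1.18 to 0.28, Csf1 from -0.52 to 0.08, Il34 from -1.11 to 0.22, the RANKL to OPG ratio from -0.27 to 0.84 and the Csf1 to Il34 ratio from -0.51 to 1.20. In CKO-OLD against OLD Tnfrsf11b ran from -0.19 to 2.90 and Il34 from -0.47 to 0.16. Csf1 ran from -0.67 to 0.06 in CON-OLD-iBP against OLD and from -0.20 to 0.53 in CON-OLD-iBP against CKO-OLD. In CKO-OLD against CKO-YOUNG Tnfrsf11b ran from -2.48 to 0.61, Csf1 from -0.15 to 0.48 and the RANKL to OPG ratio from -1.55 to 1.29. In the difference of deletion effects Tnfrsf11b ran from -0.16 to 2.93, Csf1 from -0.55 to 0.05 and Il34 from -0.47 to 0.85.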
